A study of Arabidopsis thaliana with 6 samples.

Results

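Alternative 3′ splice site (Alt3′SS) bins are stretches of an Arabidopsis gene that lie between 2 acceptors and belong to the exon only when the acceptor nearer to the donor is used. The 421 bins described here, in 398 genes, are those of the 2592 Alt3′SS lines in a table of 233559 bins that had a junction read for the longer exon, a junction read for the shorter exon, and at least 30 junction reads summed over 3 libraries in each of 2 conditions. Of the other Alt3′SS lines, 454 had only the exclusion junction, 790 only an inclusion junction and 916 neither, and 11 with both had fewer reads. All 421 bins could be tested, among 28466 testable splicing events of the same libraries.

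The RNA came from wild-type Col-0 seeds of Arabidopsis thaliana, with 3 Rp (red pulse) and 3 FRp (far-red pulse) libraries. All seeds took up water in darkness for 2 h, received a far-red pulse of 20 min, were stratified for 3 days at 5 °C in darkness, and then received the Rp (0.05 µmol m-2 s-1, Pfr/P 0.87) or the FRp (42 µmol m-2 s-1, Pfr/P 0.03) for 20 min. Polyadenylated RNA of whole seeds was taken 12 h later, so embryo and endosperm were sampled together, and fewer cells of a type cannot be told apart from less RNA per cell. The 2 pulses differ in photon flux as well as in colour.

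An acceptor is the 3′ end of an intron. It is recognised through a branch point, a tract of pyrimidines and an AG, and the small subunit of U2AF binds the AG itself. Where 2 AGs lie within reach of the same branch point, the second step of splicing can use either, and tandem acceptors of the form NAGNAG, 3 nt apart, are the closest common case in plants as in animals. Use of the proximal acceptor adds the bin to the mRNA, and a bin whose length is a multiple of 3 leaves the downstream reading frame as it was. PSI (percent spliced in) is given throughout as the share of inclusion reads among inclusion and exclusion reads of a bin in a library, in percent, so a high PSI means that the proximal acceptor was used more. Inclusion reads were compared directly with exclusion reads in bins with a single inclusion junction side.

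The lines differed in what their junctions show. In 361 bins, in 351 genes, a single donor is joined to 2 acceptors, all with AG at the intron end, and the donor is GT in 358 of them and GC in 3. Both acceptors of 350 of the 361 bins occur in transcripts of the RefSeq annotation of TAIR10.1. In 40 bins, in 38 genes, a cell of the table lists several junctions, and in 7 bins the junctions have different donors, so no single distance applies. The remaining 13 bins go against their label. They carry the mark Alt3ss* and lie in genes on the minus strand, and read on that strand they are 2 GT donors joined to a single AG acceptor, which is the geometry of an alternative 5′ splice site. All 21 bins with the mark Alt3ss* on the minus strand had the inclusion junction on the side that would fit the plus strand, and 30 of the 40 testable lines marked Alt5ss*, which are not among the 421, are on the minus strand with the inclusion junction on the opposite side. Distances, reading frames and sequences are therefore given for the 361 acceptor pairs only, while the test of PSI covers all 421 bins.

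The following 30-nt stretches show tandem acceptors 3 nt apart that were chosen because they hold the most reads, fall near equal use in both conditions, lie in splicing factors, or passed the test of light (VEP1). They are written 5′ to 3′ on the strand of the gene, from the TAIR10.1 sequence of RefSeq, with the 2 NAG triplets in capitals.
RPS25 family gene AT2G21580, chr2:9237125-9237154, plus strand: atgtttgttaaacaaaaCAGAAGtggagca
60S acidic ribosomal protein gene AT2G27710, chr2:11816906-11816935, plus strand: tctgttcactatttttcCAGAAGatgaagg
VEP1, chr4:12565327-12565356, plus strand: tttaatttgtgtactcgCAGAAGaaactcg
RAB18, chr5:26518711-26518740, minus strand: gaatgttatatgtataaCAGGAGgatgatg
NTF2 family gene AT5G60980, chr5:24545409-24545438, plus strand: cacgtatttgtgactcgCAGCAGcaaggtt
SCL33, chr1:20632128-20632157, plus strand: tttttggttcgttggagCAGCAGatttcgg
SURF2 gene AT5G14440, chr5:4656167-4656196, minus strand: ttaatgaactgtgttcgTAGCAGcaacaag
DRH1, chr3:213203-213232, minus strand: tataaatttttgatgtaAAGTAGaagcagc
RS41, chr5:21133265-21133294, plus strand: ttgtggttttgaaactgAAGCAGcccctct

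Bins with acceptors farther apart are shown next as the 20 intron bases and 10 exon bases around each acceptor, or as 1 stretch that holds both, with the AG of each acceptor in capitals, for bins whose PSI passed the test of light, for a ribosomal protein gene and for a pair of paralogs.
AT3G03100, both acceptors, chr3:705922-705951, minus strand: agcaatcactttgtgaacAGgtAGgcacag
AT2G19730, both acceptors, chr2:8511719-8511748, plus strand: tcatttttggtgtggtgaAGgtAGgtattt
SR30 proximal, chr1:2943555-2943584, minus strand: ttgcgttgtttgttttctAGatctggctca
SR30 distal, chr1:2943217-2943246, minus strand: ggtttttggtcttgctgcAGgtcccaatca
nPAP proximal, chr4:15854024-15854053, plus strand: tgcatatatatgattggcAGgtcctgcact
nPAP distal, chr4:15854145-15854174, plus strand: gtaatcttgtcttgtcttAGtcaaactctt
GLX1 proximal, chr1:3995996-3996025, plus strand: ttttgtttcaatgagagcAGctgaatcaag
GLX1 distal, chr1:3996021-3996050, plus strand: tcaagttttcttctttctAGaaacatggct
AT1G48550 proximal, chr1:17951846-17951875, minus strand: gatgcaaaaatctgtgacAGtatctactaa
AT1G48550 distal, chr1:17951830-17951859, minus strand: acagtatctactaactgcAGatataccgcg
RS2Z33 proximal, chr2:15671809-15671838, minus strand: cttgaatgatcttattgaAGgtctctggga
RS2Z32 proximal, chr3:19836121-19836150, minus strand: cttgaatgatcttgttgaAGgtttctgggg

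The libraries held 24234421 to 32387080 gene reads, and the median bin had 76 to 107 junction reads in a library. Summed over a condition, the median was 278 reads after the Rp against 272 after the FRp, and 333 of the 421 bins had at least 100 reads in each. The median SD of PSI between 3 libraries was 4.39 points after the Rp and 4.09 points after the FRp. Values are given with n = 3 libraries per condition unless another n is stated. Levels of marker genes are given as CPM, which are gene counts scaled to the library total after TMM normalization. The sums therefore depend on that scaling, and sums scaled to library totals alone are not given. Embryo reserve transcripts (11 genes, none at 0) summed to 11757 to 19260 CPM after the Rp and 157823 to 185611 CPM after the FRp. The sums of 3 endosperm genes were 2358 to 3558 CPM after the Rp and 6737 to 9177 CPM after the FRp. Those of 5 leaf genes were 541 to 789 CPM after the Rp and 283 to 389 CPM after the FRp. Those of 3 pollen genes were at most 2.25 CPM after the Rp and 4.07 CPM after the FRp. The part of this shift in marker levels in the PSI values was not tested.

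Most acceptor pairs lay very close together. The distance was 3 nt in 162 of the 361 pairs (44.9%), all of the form NAGNAG, 2 nt in 3 pairs, 4 to 6 nt in 55, 7 to 12 nt in 41, 13 to 30 nt in 59, 31 to 100 nt in 32 and over 100 nt in 9, with a median of 5 nt and a maximum of 338 nt. Among single distances, 6 nt was the next most frequent, with 33 pairs, followed by 4 nt with 14 pairs and 9 nt with 11. Of the 196 pairs more than 3 nt apart, 136 had no further AG between the acceptors.

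The distance was divisible by 3 in 260 of the 361 pairs (72%), and in 98 of the 196 pairs more than 3 nt apart (50%). This share differed with the place of the intron in the annotated gene. Of the pairs more than 3 nt apart, 70 of 102 in introns within coding sequence were divisible by 3, against 12 of 40 in 5′ UTR introns, 7 of 24 in 3′ UTR introns and 9 of 30 in introns whose place differs between annotated transcripts. The short coding pairs that were not divisible by 3 were few: of the 27 coding pairs 4 to 6 nt apart, 23 were 6 nt apart and 4 were 4 or 5 nt apart, whereas all 55 pairs of that class included 22 that were not divisible by 3. These counts describe bins that had been annotated and read in these seeds, and the share among all annotated introns was not computed.

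**Figure D1:**
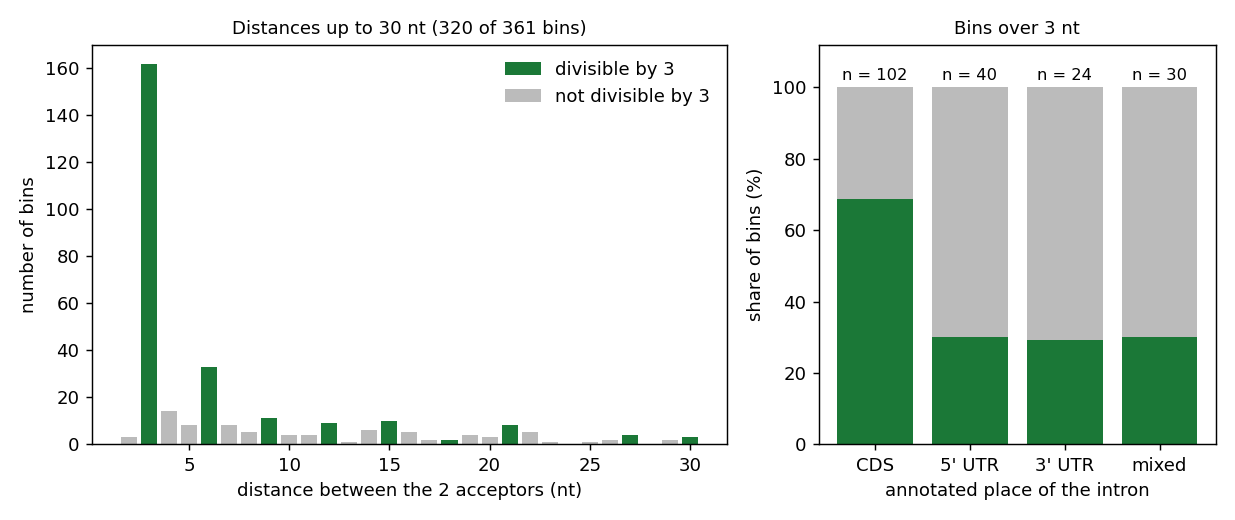
Left, number of acceptor pairs at each distance up to 30 nt (320 of 361 pairs), with distances divisible by 3 in green and others in grey; the bar at 3 nt holds 162 pairs and the bar at 6 nt holds 33. Right, share of pairs more than 3 nt apart whose distance is divisible by 3 (green) or not (grey), in percent, by the annotated place of the intron; the green part is 70 of 102 pairs in coding sequence (CDS), 12 of 40 in 5′ UTRs, 7 of 24 in 3′ UTRs and 9 of 30 in introns of mixed place.

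PSI had no single trend with distance. Across the 361 pairs, Spearman's rank correlation between distance and PSI was 0.045 after the Rp against -0.0041 after the FRp, and between 0.025 and 0.065 in the single Rp libraries and between -0.018 and 0.018 in the single FRp libraries. These bins share libraries, and the pairs at 3 nt are tied, so the coefficient is a description. Among the 196 pairs more than 3 nt apart, the rank correlation was -0.17 after the Rp against -0.22 after the FRp.

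Classes of distance differed more than the correlation shows. Pairs 3 nt apart had a median PSI of 50.9% after the Rp and 51.5% after the FRp and quartiles of 33.9% and 74.7% after the Rp and 29.4% and 76.3% after the FRp, so the 2 acceptors were used about equally in the middle of this class and either could dominate. Pairs 4 to 6 nt apart were mostly spliced at the proximal acceptor, with a median of 79.8% after the Rp and 79.6% after the FRp. This held at each of the 3 distances: the median was 82.1% after the Rp against 85.3% after the FRp at 4 nt (14 pairs), 77.5% after the Rp and 80.3% after the FRp at 5 nt (8 pairs), and 79.8% after the Rp and 78.6% after the FRp at 6 nt (33 pairs). The class from 7 to 12 nt (52.4% after the Rp, 50.6% after the FRp) was not uniform: the median was 36% after the Rp against 41.5% after the FRp at 9 nt (11 pairs), 85.2% after the Rp and 79.8% after the FRp at 10 nt (4 pairs), and 79% after the Rp and 78.2% after the FRp at 12 nt (9 pairs). The class medians were lower at 13 to 30 nt (47.8% after the Rp, 41.9% after the FRp), and higher at 31 to 100 nt (78.2% after the Rp, 66.3% after the FRp). The 9 pairs over 100 nt apart had medians of 27.9% after the Rp and 16.9% after the FRp, but spanned 0.304% to 94.8% after the Rp. Individual bins reached down to 12.3% or less and up to 96.9% or more in every class from 3 to 30 nt, in both conditions.

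**Figure D2:**
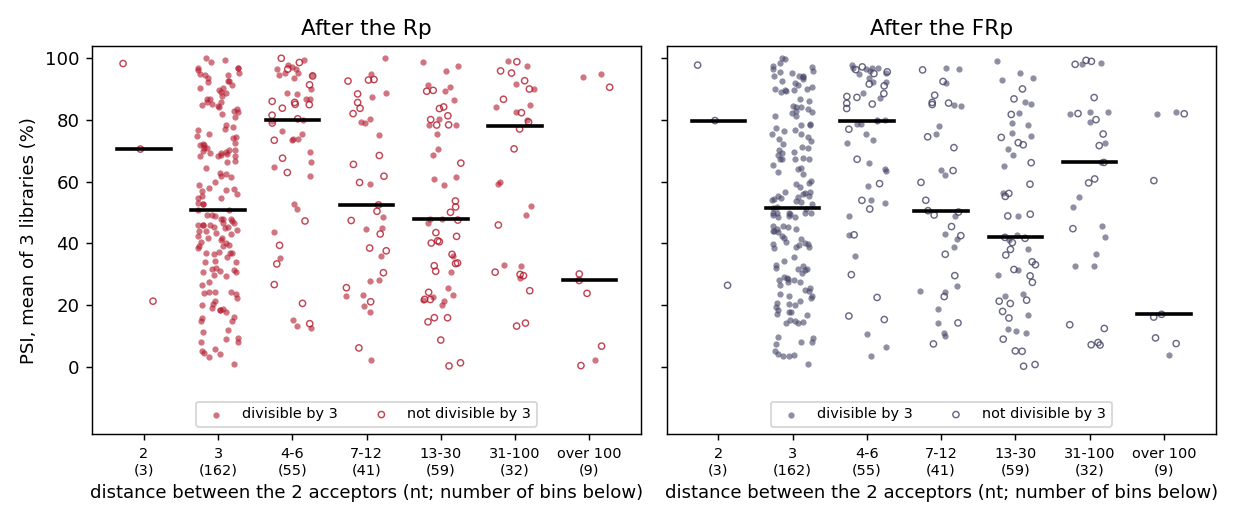
PSI of each of the 361 acceptor pairs (mean of 3 libraries, %) by class of distance, after the Rp (left, red) and after the FRp (right, dark blue), with filled points for distances divisible by 3, open points for other distances and black lines for class medians. The median of the 4 to 6 nt class is near 80% in both panels, while that of the 3 nt class is near 51%.

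Bins with the most reads in each class, where counting error is smallest, are given next by library or as means. RAB18, which has the most reads of the tandem acceptors, is described with the called bins below, and its FRp libraries differed. In the RPS25 family gene AT2G21580, a component of the small ribosomal subunit with acceptors CAG and AAG 3 nt apart, PSI was 89.8%, 89.5% and 89.6% after the Rp and 89.5%, 89.2% and 90.1% after the FRp, from 20123 and 12241 reads. The acidic ribosomal protein gene AT2G27710, whose CAG and AAG acceptors lie in the 5′ UTR, had 85.6%, 86.1% and 85.9% after the Rp and 83.4%, 83.7% and 85.3% after the FRp. The groups overlapped in the first gene and not in the second, where the means differed by 1.7 points and the adjusted p was 0.88 in edgeR's quasi-likelihood test. Ribosomal protein genes led the 4 to 6 nt class: the L28e family gene AT4G29410 (CAG and AAG, 5 nt) had 91.1%, 92.5% and 90.6% after the Rp and 91.7%, 90.1% and 91.3% after the FRp, whereas its relative AT2G19730 (AAG and TAG, 4 nt, 5′ UTR) had 38%, 38.5% and 41.4% after the Rp and 43.8%, 38.6% and 45.8% after the FRp. The L32e gene AT5G46430, with a GAG as its proximal acceptor and AAG 4 nt on, had 13.1%, 14.1% and 14.6% after the Rp and 17.1%, 14.5% and 14% after the FRp.

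At larger distances some of the most abundant bins were spliced almost only at 1 acceptor, while others used both. FBR12, which encodes a form of the translation factor eIF5A, had a mean PSI of 0.198% after the Rp and 0.101% after the FRp at a distance of 22 nt, from 25261 and 9294 reads. CP29, a chloroplast RNA-binding protein, had 98.7% after the Rp and 99.1% after the FRp at 18 nt in its 3′ UTR, and HSP91 had 1.2% after the Rp and 0.653% after the FRp at 17 nt. In the 31 to 100 nt class, AT2G20820 (44 nt) and the serine carboxypeptidase gene AT4G36195 (33 nt) had means of 98% to 99.3% in both conditions, while BTR1L, an RNA-binding protein, had 32.6% after the Rp and 36.6% after the FRp at 63 nt. GRP4, a glycine-rich RNA-binding protein, had 26.5%, 28.4% and 28.2% after the Rp and 24.2%, 23.6% and 24.8% after the FRp at 12 nt, a difference of 3.51 points with no overlap that did not pass the test (adjusted p = 0.833, edgeR). Over 100 nt, where SR30 and RS2Z33 also held many reads, the most abundant bin was that of AT1G80040, a ubiquitin system gene with acceptors 249 nt apart and a stop codon in the bin, with means of 2.08% after the Rp and 3.81% after the FRp (adjusted p = 0.577, edgeR). The ribosomal L24e gene AT2G44860 had 92.9% after the Rp and 92.5% after the FRp at 10 nt.

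Divisibility by 3 went with a small difference in PSI over all pairs. The median PSI of the 260 divisible pairs was 59.1% after the Rp against 55.6% after the FRp, and that of the other 101 pairs was 52.4% after the Rp against 53.9% after the FRp. The difference of the medians was 6.70 points after the Rp, with an SD of 7.28 points over single libraries, and 1.66 points after the FRp, with an SD of 5.26 points. After the Rp its sign turned to -1.16 points among bins with at least 100 reads in each condition, to -1.84 points among lines marked Alt3ss only and to -0.675 points among pairs up to 100 nt apart, and it was 0.652 points without the first, 1.41 points without the second and 10 points without the third Rp library. After the FRp it was 0.0457 points among lines marked Alt3ss only, 0.0566 points among pairs up to 100 nt apart, 3.35 points without the first and 3.28 points without the third FRp library. Among pairs more than 3 nt apart the gap was wider, with medians of 73.8% after the Rp and 69.7% after the FRp in 98 divisible pairs, and of 52.1% after the Rp and 53.9% after the FRp in 98 other pairs. Within coding sequence, 70 divisible pairs over 3 nt had medians of 69.5% after the Rp and 64.9% after the FRp, and 32 other pairs had 51.9% after the Rp and 57.7% after the FRp. In 5′ UTRs, where length does not set a frame, 12 divisible pairs over 3 nt had 79.6% after the Rp and 66.9% after the FRp, and 28 other pairs had 71.5% after the Rp and 60.1% after the FRp. The classes differ in distance as well as in divisibility. At 4 to 6 nt the 33 divisible pairs had 79.8% after the Rp and 78.6% after the FRp. The 22 others had 80.9% after the Rp and 84.4% after the FRp. Given as Rp and FRp medians, 7 to 12 nt had 46.7% and 45.8% in 20 divisible pairs, against 59.7% and 53.9% in 21 others. At 13 to 30 nt they were 61.6% and 65% in 27 divisible pairs, against 40.6% and 37.1% in 32 others. At 31 to 100 nt they were 80.1% and 66.4% in 15, against 77.1% and 66.2% in 17. Over 100 nt they were 94.1% and 82% in 3, against 25.8% and 16.5% in 6. The direction thus differed between classes.

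Bins that bring an in-frame stop codon into the coding sequence had a lower median PSI. Their number was 12, with a median of 25.8% after the Rp and 28% after the FRp, against 58.4% after the Rp and 56.3% after the FRp in 216 coding bins without a stop, and the reading frame of 8 further coding bins could not be followed. The 12 bins spanned 0.304% to 86.7% after the Rp and 3.81% to 82.1% after the FRp. They include all 3 coding pairs over 100 nt apart (SR30, nPAP and AT1G80040), so stop codon and distance cannot be told apart here. Of the 12, 4 were divisible by 3 (25.8% after the Rp, 28.6% after the FRp) and 8 were not (25.2% after the Rp, 20.4% after the FRp). A stop codon early in the reading frame can expose an mRNA to nonsense-mediated decay (NMD), which these steady-state counts do not separate from splicing. Coding bins with no stop inside them that were not divisible by 3 numbered 18. Their medians were 84% after the Rp and 66.1% after the FRp. The quartiles were 37.6% and 95% after the Rp and 32.5% and 96.3% after the FRp. Taken bin by bin, the median difference, Rp minus FRp, was only 0.324 points. Among coding pairs 3 nt apart, the medians by the phase of the intron were 54% after the Rp and 50.7% after the FRp in phase 0 (66 pairs), 59.6% after the Rp and 56.4% after the FRp in phase 1 (46 pairs), and 45.3% after the Rp and 43.5% after the FRp in phase 2 (20 pairs).

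PSI of pairs 3 nt apart differed with the base before each AG. The comparison set was 25747 introns with constitutive acceptors that could be tested, so each had at least 5 inclusion and 5 exclusion reads. Their last 3 bases were CAG in 68%, TAG in 26.2%, AAG in 5.54% and GAG in 0.0893%. Among proximal acceptors 3 nt from the next, CAG made up 50%, TAG 35.8%, AAG 14.2% and GAG 0%, and among the distal ones CAG 65.4%, TAG 14.2%, AAG 17.3% and GAG 3.09%. Where CAG was followed by AAG (17 pairs, as in VEP1 and AT2G21580 above), the median PSI was 89% after the Rp against 89.6% after the FRp. In the opposite order, AAG followed by CAG (15 pairs, as in RS41), it was 24% after the Rp against 22.2% after the FRp. Where CAG preceded TAG (12 pairs) it was 65.7% after the Rp against 72.6% after the FRp, and where TAG preceded CAG (41 pairs) 36.7% after the Rp and 31.2% after the FRp. TAG followed by AAG (7 pairs) had 74.3% after the Rp and 78.4% after the FRp. Taken over all partners, the median PSI was 66.5% after the Rp against 63% after the FRp with CAG as the proximal acceptor (81 pairs), 42.3% after the Rp against 41.4% after the FRp with TAG (58 pairs), and 31% after the Rp against 28.1% after the FRp with AAG (23 pairs). All 5 pairs with GAG as the distal acceptor had a PSI over 92% in both conditions.

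Some pairs had the same triplet at both positions, while other sequence around their acceptors was not matched. CAG followed by CAG (50 pairs) had medians of 52.9% after the Rp and 50.8% after the FRp, TAG followed by TAG (8 pairs) 67% after the Rp and 65.9% after the FRp, and AAG followed by AAG (4 pairs) 65.2% after the Rp and 55.1% after the FRp. The spread within a combination stayed wide: the 50 CAG–CAG pairs ran from 4.9% to 94.7% after the Rp and from 7.3% to 100% after the FRp, so the triplets alone did not fix PSI. The smallest combinations hold too few pairs to order them.

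**Figure D3:**
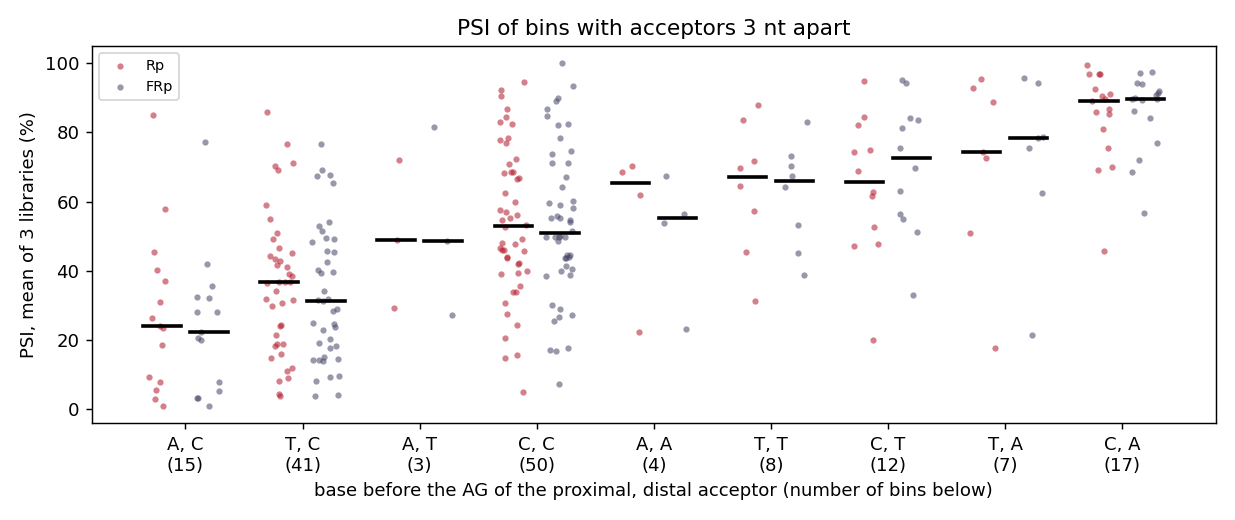
PSI (mean of 3 libraries, %) of acceptor pairs 3 nt apart by the base before the AG of the proximal and of the distal acceptor, after the Rp (red, left of each pair of columns) and the FRp (dark blue, right), with black lines for medians; combinations of at least 3 pairs are shown in the order of their FRp medians. Pairs with C first and A second lie highest, with medians near 89%, and pairs with A first and C second lowest, with medians of 24% after the Rp and 22.2% after the FRp.

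Beyond 3 nt the proximal triplet showed the same order for its 3 common forms. The median PSI was 78.3% after the Rp against 71% after the FRp where the proximal acceptor was CAG (75 pairs), 61.7% after the Rp and 59.2% after the FRp for TAG (88 pairs), 37.5% after the Rp and 42.5% after the FRp for AAG (27 pairs), and 40.4% after the Rp and 43.8% after the FRp for GAG (6 pairs). Proximal acceptors of this group were CAG in 38.3% and distal ones in 69.4%, against 68% of constitutive acceptors. Pyrimidines made up a median of 60% of the 20 bases before proximal acceptors and 55% before distal acceptors more than 3 nt away, against 60% before constitutive acceptors. The rank correlation between PSI and the pyrimidine share before the proximal acceptor was 0.032 after the Rp against 0.062 after the FRp over 361 pairs, and 0.11 after the Rp and 0.12 after the FRp over the 196 pairs more than 3 nt apart, where the windows of neighbouring acceptors partly overlap.

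The 5 bins with most reads among those at 40 to 60% in both conditions were tandem acceptors 3 nt apart. DRH1, a DEAD box RNA helicase with AAG followed by TAG, had 47.6%, 50.1% and 48.8% after the Rp and 47.5%, 50.8% and 48% after the FRp. The NTF2 family gene AT5G60980, with CAG followed by CAG, had 55.3%, 58.1% and 52.7% after the Rp and 48.4%, 51.8% and 49.2% after the FRp, and SURF2 (AT5G14440), with TAG followed by CAG, had 51.1%, 48.1% and 48.7% after the Rp and 40.8%, 39.1% and 47.5% after the FRp. The groups overlapped in DRH1 and not in the other two, and none of the 3 passed the test. AT5G06980 had means of 47.2% after the Rp and 51.2% after the FRp, and EMB140 had 47.9% after the Rp and 54.8% after the FRp.

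The order of the bins by PSI was largely the same after both pulses. Over the 361 acceptor pairs, Spearman's rank correlation between the Rp and the FRp mean was 0.94, 182 pairs were over 50% in both conditions, 140 under 50% in both, and 39 on different sides of 50% or at it. Both acceptors were used in at least 10% of reads in both conditions in 273 pairs, while 44 pairs had a PSI over 90% in both and 18 a PSI under 10% in both. Over all 421 bins the median size of the difference was 4.91 points and the median difference, Rp minus FRp, was 0.74 points, against 0.941 and 0.0253 points over all 28466 tested events, which include intron retention events with low levels. A difference over 10 points was measured in 106 bins and over 20 points in 30, and the shares of all tested events with such differences are not given here.

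Calls required an adjusted p (Benjamini-Hochberg over all 28466 events) under 0.15 in edgeR's quasi-likelihood test, and PSI means more than 0.5 points apart. The test called 15 of the 421 bins, 10 with higher and 5 with lower PSI after the Rp, against 2.46% of all tested events called, 1.02% in the higher and 1.44% in the lower direction. As a share, 15 of 421 is 3.56%, near that background, and among other kinds of annotated AS the test called 3.21% of 156 Alt5′SS bins, 12.2% of 74 skipped exons and 6.42% of 794 intron retention bins. The unadjusted p was under 0.05 in 48 bins. The share of all tested events under that limit is not given here, so this count has no background to be read against. The 3 Rp and 3 FRp values did not overlap in 114 of the 421 bins, against a background of 18.7% of all tested events. Of the 114 bins, 69 had higher and 45 lower PSI after the Rp. One bin had no junction read in the second Rp library and entered the fit with 0 reads there, its mean PSI after the Rp being that of 2 libraries. DESeq2 made 5 of the 15 calls and limma on log2 ratios with a pseudocount of 0.5 made 1, while limma with a pseudocount of 2 made 43 calls, 14 of them among the 15.

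**Figure D4:**
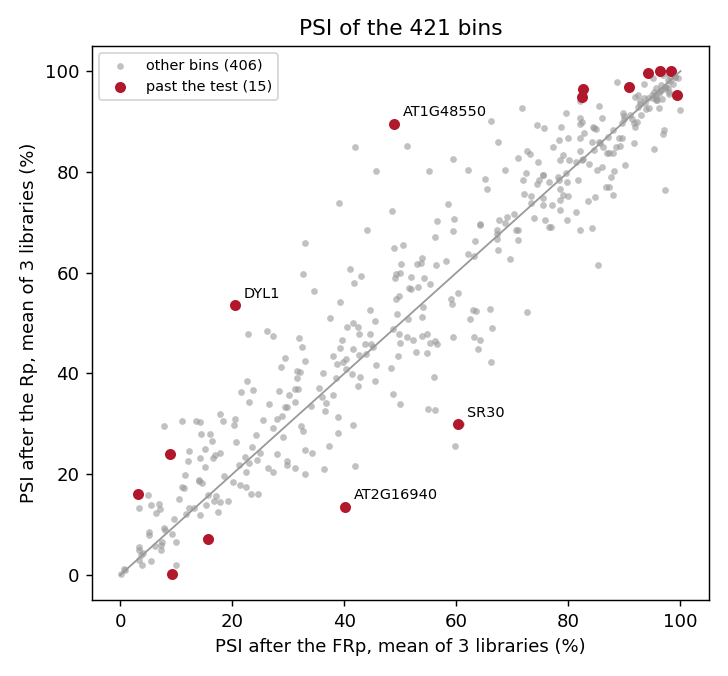
PSI of all 421 bins after the Rp (vertical axis) against PSI after the FRp (horizontal axis), both as the mean of 3 libraries in percent, with the 15 bins past the test in red, the other 406 in grey and the diagonal as a line. Most bins lie along the diagonal, and the named red points differ by more than 20 points.

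Of the 5 bins with lower PSI after the Rp, those of SR30, SR34 and AT2G16940 lie in splicing factor genes. SR30, a serine/arginine-rich protein that binds pre-mRNA and promotes splice site choice, has a donor at 2944169 on chromosome 1 (last exon base) joined to first exon bases at 2943564 and 2943226, 338 nt apart, which is not a multiple of 3, and the bin holds an in-frame stop codon. Its PSI was 26.9%, 31.6% and 31.6% after the Rp and 61%, 60.5% and 59.5% after the FRp. All 3 Rp values lay below all 3 FRp values, by 30.3 points on average (log2 odds -1.83 ± 0.44 SE, adjusted p = 0.00647, edgeR), and the gene's mRNA was lower as well (log2 fold change -1.45 ± 0.12 SE). The call held in every alternative except limma with a pseudocount of 0.5 (adjusted p = 8.81e-05 to 0.26 over 18 alternatives). In SR34, another SR protein, a bin with several listed junctions had 7.72%, 5.63% and 8.28% after the Rp and 14.6%, 18.4% and 13.9% after the FRp, a difference of -8.4 points (adjusted p = 0.115, edgeR) that lost its call when any library but the third FRp library was left out (0.00564 to 0.444 over 18 alternatives). A second SR34 bin, with AAG acceptors 4 nt apart in the 5′ UTR, had 80.5%, 79.8% and 76.7% after the Rp and 87.8%, 83.6% and 91.4% after the FRp and did not pass (adjusted p = 0.438, edgeR).

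AT2G16940, a CC1-like splicing factor, was called lower too, with 10.8%, 15.2% and 14.7% after the Rp and 37.4%, 54.3% and 28.6% after the FRp, but its inclusion and exclusion junctions start at different donors. AT5G51300, a homolog of the branch point binding protein SF1, was called higher, with 93.8%, 90.7% and 100% after the Rp and 84.1%, 82.6% and 80.7% after the FRp, for acceptors 105 nt apart in its 3′ UTR. Both lost their calls when single libraries were left out: AT2G16940 without the first or the third Rp library or the second FRp library (adjusted p = 0.0102 to 0.339 over 18 alternatives), and AT5G51300 without any library but the second Rp library (0.00246 to 0.428).

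Among the listed splicing factor genes, the other bins did not pass the test. AT2G16940 is not on that list and is named because it was called. Of 30 genes listed as SR proteins or splice site recognition factors, 8 held 9 bins, of which 1 was called higher and 2 lower, with a median difference of -1.68 points, beside 2.46% of all tested events called, 3.56% of the 421 bins, and a median of 0.0253 points over all events. SCL33 (CAG–CAG) had 40.6%, 45.3% and 40.8% after the Rp and 43.4%, 36.1% and 40.1% after the FRp. RS41 (AAG–CAG) had 18.8%, 17.4% and 19% after the Rp and 21.3%, 19.9% and 19.1% after the FRp. SR45 had means of 75.3% after the Rp and 79% after the FRp at 21 nt. The paralogs RS2Z33 and RS2Z32 both have acceptors 218 nt apart and share 27 of the 30 bases around the proximal acceptor and 20 of 30 around the distal one. RS2Z33 had 5.78%, 7.89% and 6.17% after the Rp and 7.04%, 9.17% and 6.15% after the FRp, and RS2Z32 had 23.4%, 30.3% and 17.5% after the Rp and 22.7%, 12.5% and 15.6% after the FRp. None of these 5 bins passed the test.

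Among dormancy and hormone genes, the dormancy-associated gene At-DRM1 (DYL1, AT1G28330) had 48.2%, 63.2% and 49.2% after the Rp and 21.6%, 20.3% and 19.5% after the FRp. All Rp values exceeded all FRp values, by 33.1 points on average (log2 odds 2.16 ± 0.39 SE, adjusted p = 1.32e-05, edgeR), and among the alternatives only limma with a pseudocount of 0.5 lost the call. This is one of the 13 bins that are donor pairs: donors with last exon bases at 9934451 (inclusion) and 9934794 (exclusion) on chromosome 1 are joined to an acceptor with its first exon base at 9934288, and the donors lie 343 nt apart. Its mRNA fell by 2.79 on the log2 scale. The related gene AT2G33830 had 97.8%, 100% and 100% after the Rp and 96.7%, 96.6% and 97.4% after the FRp at 6 nt (adjusted p = 0.666, edgeR), and PIL5, the phytochrome-interacting repressor of germination also known as PIF1, had 81.3%, 79.5% and 86.2% after the Rp and 75.6%, 79.2% and 85.4% after the FRp at 37 nt (adjusted p = 0.924, edgeR). Of 24 listed phytochrome, hormone and dormancy genes, 3 held a bin and 1 was called, higher after the Rp, beside 1.02% of all tested events called in that direction, and the median difference was 2.38 points. Of 11 listed NMD and exon junction genes, 2 held 3 bins and none was called by edgeR, DESeq2 or limma, with 0 at an unadjusted p under 0.05. Among them, the Barentsz homolog AT1G15280 had 53.8%, 100% and 62.7% after the Rp and 61.1%, 23.8% and 60.9% after the FRp from 99 and 62 reads.

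The remaining calls with higher PSI after the Rp came from several gene classes. GLX1, a glyoxalase that detoxifies methylglyoxal, had 23.3%, 23.8% and 25.2% after the Rp and 8.59%, 9.48% and 8.57% after the FRp for 5′ UTR acceptors 25 nt apart. The groups were well apart, by 15.2 points (log2 odds 1.70 ± 0.56 SE, adjusted p = 0.109, edgeR), but the call was lost whichever library was left out (0.0043 to 0.393 over 18 alternatives). AT1G48550, a subunit of the VPS26 type that sorts vacuolar proteins, had 75%, 100% and 93.8% after the Rp and 38.8%, 43.3% and 64.4% after the FRp at 16 nt, from only 63 and 168 reads, and lost its call without the second or the third Rp library or the first FRp library (adjusted p = 0.00277 to 0.219 over 17 alternatives). AT1G11360, an adenine nucleotide alpha hydrolase-like gene with several listed junctions, had 18%, 14.1% and 16% after the Rp and 5.42%, 2.29% and 1.65% after the FRp (adjusted p = 0.00626, edgeR), and kept its call whichever library was left out.

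Several calls rest on an acceptor that had no read at all in some libraries. A library with at least 50 reads of a bin and none on 1 side occurred in 23 of the 421 bins (33 of 2526 library values), and 8 of those 23 bins are among the 15 called. Leaving these bins out of the count gives 7 calls among 398 bins, 4 higher and 3 lower. AT5G51300, described above, is 1 of the 8, with 123 inclusion reads and 0 exclusion reads in the third Rp library. In AT3G03100, a subunit of mitochondrial complex I with CAG and TAG acceptors 4 nt apart, the distal acceptor had 0 of 549, 0 of 484 and 0 of 662 reads after the Rp and 22, 32 and 25 reads after the FRp, or 4.21%, 3.51% and 3.36%. The 0 of 1695 reads allow a share of up to 0.177% after the Rp (3 reads, counting error only), and the call was kept whichever library was left out (adjusted p = 3.11e-08, edgeR). In nPAP, a nuclear poly(A) polymerase, the proximal acceptor of a pair 121 nt apart had 2, 0 and 0 reads after the Rp and 17, 9 and 27 after the FRp, or PSI values of 0.913%, 0% and 0% after the Rp and 8.5%, 3.18% and 16.2% after the FRp (adjusted p = 0.000288, edgeR). That bin holds an in-frame stop codon and its call was kept whichever library was left out. VEP1, a reductase-like gene, had 99.2%, 100% and 99.5% after the Rp and 95.2%, 92.5% and 95.2% after the FRp (adjusted p = 0.0255, edgeR), and lost its call without the third Rp library.

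Other calls of this kind depend on single libraries. RAB18, a dehydrin that accumulates in drying seeds, had by far the most reads of the tandem acceptors, 14632 after the Rp and 65455 after the FRp. Its distal acceptor, a GAG, had 0 reads in all 3 Rp libraries, which allows up to 0.0205%, and 1045, 24 and 6 reads after the FRp, or 4.79%, 0.107% and 0.0284%. A single FRp library thus held nearly all of them, and without it the difference in PSI was 0.0675 points in place of 1.64, under the minimum of 0.5 (adjusted p = 1.03e-25 to 0.834 over 18 alternatives, 7 of which lost the call). In AT5G62290, an ICln family gene, the distal AAG had 0, 29 and 0 reads after the Rp and 14, 24 and 25 after the FRp, so the groups overlapped (PSI 100%, 90.4% and 100% after the Rp, 91.5%, 91.4% and 89.6% after the FRp), and the call was lost without the first or the third Rp library. NAP1;2, a histone chaperone with several listed junctions, had 96.9%, 96.2% and 96.4% after the Rp and 100%, 96.7% and 50.8% after the FRp, and without the third FRp library its difference turned to -1.86 points in place of 14 points. Without the first Rp library it lost its call. With robust variance estimates in edgeR the calls of both RAB18 (adjusted p = 0.834) and NAP1;2 (adjusted p = 0.782, 1.3e-06 to 0.91 over 18 alternatives) were lost. AT1G17200 had 95.9%, 93.1% and 96.6% after the Rp and 100%, 97.9% and 100% after the FRp (adjusted p = 0.0502, edgeR), with 0 exclusion reads in 2 FRp libraries, and lost its call without the second Rp library or the first or the third FRp library. How junctions without reads came about in such libraries was not tested.

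**Figure D5:**
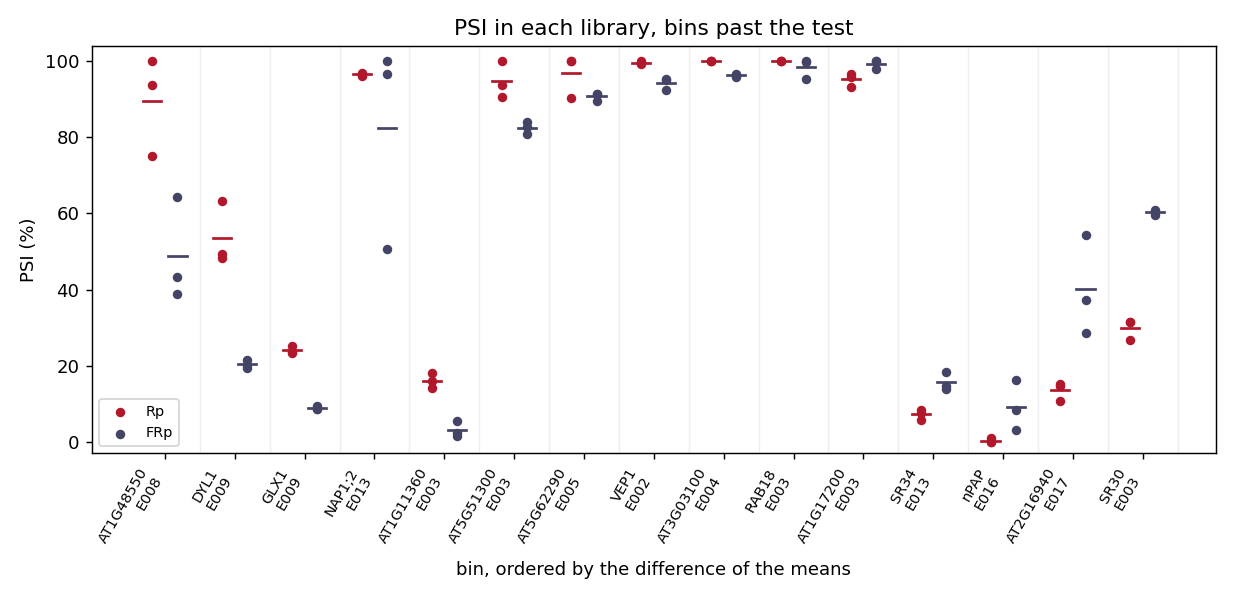
PSI (%) in each library of the 15 bins past the test, after the Rp (red, left of each pair) and after the FRp (dark blue, right), with short lines at the means of 3 libraries; bins are ordered by the difference of the means, Rp minus FRp. The groups overlap in NAP1;2 and AT5G62290 and are separate in the other 13 bins.

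Several large differences did not pass the test. The ankyrin repeat gene AT2G26210 had 80.6%, 85.7% and 74% after the Rp and 48.5%, 38.5% and 50% after the FRp for 5′ UTR acceptors 72 nt apart, a difference of 34.4 points with an adjusted p of 0.151 in edgeR, just past the limit. ATMAK3, an N-acetyltransferase, had 66.2%, 53.6% and 59.3% after the Rp and 38.5%, 35.1% and 24.1% after the FRp at 57 nt, also in the 5′ UTR. AT5G19030, PIMT2 and AT5G57860 had higher means by 24.9, 21.8 and 21.1 points. In the other direction, the ankyrin repeat gene AT1G73350 had 44.7%, 23.1% and 21.9% after the Rp and 50%, 67.7% and 64.9% after the FRp (difference -31 points, adjusted p = 0.197, edgeR), and AT3G52920, with GAG and CAG acceptors 9 nt apart, had 42.1%, 44.8% and 47.4% after the Rp and 62.2%, 58.6% and 70.6% after the FRp. A second nPAP bin, at 36 nt, differed by -17.4 points, AT5G49710 by -15.9 and ABCI15 by -15.4. In each of these 10 bins the 3 Rp values did not overlap the 3 FRp values, which was a condition for naming them. The dormancy/auxin associated gene AT1G56220, also with GAG before CAG at 9 nt, had 28.7%, 28.4% and 27.6% after the Rp and 41.1%, 37.4% and 37.9% after the FRp (adjusted p = 0.5, edgeR).

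Differences between the pulses had larger medians in the classes from 7 nt up. The median size of the difference was 4.22 points at 3 nt, 3.40 points at 4 to 6 nt, 7.52 points at 7 to 12 nt, 7.36 points at 13 to 30 nt, 7.41 points at 31 to 100 nt and 8.98 points over 100 nt. It was 4.57 points in divisible pairs and 5.97 points in the others, a gap of 1.39 points with an SD of 1.04 points over the 9 pairs of an Rp and an FRp library. These 9 pairs reuse the same libraries and are not independent, so the SD is only a description. Calls among the acceptor pairs numbered 4 of 260 with a distance divisible by 3, all higher after the Rp, and 6 of 101 with other distances, 3 higher and 3 lower, beside the background of 2.46%. In coding introns over 3 nt, none of the 70 divisible pairs and 5 of the 32 others were called in edgeR. Of the 70, 7 had an unadjusted p under 0.05, DESeq2 called 0, and limma called 0 with a pseudocount of 0.5 and 6 with a pseudocount of 2. By class, the calls were 3 of 162 at 3 nt, 1 of 55 at 4 to 6 nt, 0 of 41 at 7 to 12 nt (5 at an unadjusted p under 0.05, 0 in DESeq2, 0 and 4 in limma with pseudocounts of 0.5 and 2), 2 of 59 at 13 to 30 nt, 1 of 32 at 31 to 100 nt and 3 of 9 over 100 nt. These counts are too small for a statement on the classes, and no test of the difference between them was made.

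The bins at the edge of the read minimum show how coarse PSI becomes there. Just inside it, AT1G73210 (30 reads after the Rp, 81 after the FRp) had means of 64.8% after the Rp and 48.8% after the FRp, DHNAT2 (30 and 56 reads) had 85% after the Rp and 41.9% after the FRp, and AT5G42690 (32 and 65 reads) had 58.9% after the Rp and 54.2% after the FRp. Just outside it, AT1G31830 (26 reads after the Rp, 62 after the FRp) had 65.8% after the Rp and 37.7% after the FRp, AT3G54500 (26 and 85 reads) had 90.2% after the Rp and 57.9% after the FRp, and AT2G23985 (182 and 21 reads) had 37.3% after the Rp and 59.3% after the FRp.

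The host genes as a group were about as often changed in mRNA level as other genes. Differential expression (DE) required a fold change over 1.5 with an adjusted p under 0.05 in edgeR's quasi-likelihood test. Of the 398 host genes, 215 were DE (54%), against a background of 55.6% of 16924 tested genes and 50.9% of the 10086 genes with any testable splicing event. The direction differed: 60 host genes were higher and 155 lower after the Rp, while the backgrounds were 28.8% higher and 26.8% lower over all tested genes and 22.9% higher and 28.1% lower over genes with a testable event. This split depends on the scaling. Without TMM normalization 128 host genes were higher and 82 lower, against backgrounds of 39.8% higher and 14.8% lower (54.6% in all) over genes with a testable event, and the median log2 fold change was 0.18 in host genes and 0.45 in all genes, against -0.25 in host genes and 0.02 in all genes with TMM, so host genes lay below the median gene under both. Of the 15 called bins, 11 lay in DE genes, 10 of them lower after the Rp. The part of mRNA level in the calls was not tested.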

How the data were processed

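Polyadenylated RNA of Col-0 seeds was sequenced in 6 libraries of 24234421 to 32387080 gene reads, 3 per light pulse, grouped by the sample labels. The authors aligned reads to TAIR10 with TopHat2 2.1.1 (SAMtools 1.3 is also listed in the submitters' processing notes) and deposited raw counts of reads per gene and per splice junction, together with PSI as a fraction pooled over the libraries of a condition. Whether counting used strand is not given in the sources used here, so counts of overlapping genes, and of near-identical copies, are uncertain. The fraction that the authors deposited served only as a comparison, and PSI was recomputed per library from the counts, and the pooled value differed by more than 0.0001 in 4 of 432 Alt3′SS lines. Exclusion reads were weighted by 2 only where inclusion junctions were listed on both sides. Junction ends were read on TAIR10.1, whose sequence gave GT or GC and AG ends for all 361 acceptor pairs, so the coordinates fit. Positions of donors and acceptors in the text are the last and the first exon base.

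Analyses used R 4.3.3. The AS test was an edgeR 4.0.16 quasi-likelihood fit to inclusion and exclusion counts in which each library had its own coefficient and light could change their ratio, on events with a mean of 10 reads per library in each condition, 5 reads on each side, in total, and a gene over a mean count of 10 and a read density of 0.05 in both conditions. Its variance came from the trend over all events, so a bin's own spread between libraries did not enter its p. Gene levels were fitted with TMM, for genes over those minimums in either condition. Both tests were tried on simulated data with 200 changed features. Adjusted p-values are Benjamini-Hochberg over all features tested. Standard errors were obtained from the F statistic, as log2 change divided by its root. Values of p measure only spread between these samples, in the AS test the typical spread of events of similar read number. Intervals and limits from counts cover counting error only.

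Alternatives were a replicate block, robust and newer edgeR settings, DESeq2 1.42.0, limma 3.58.1 with pseudocounts of 0.5 and 2, other filters and thresholds, and each library left out. Separate totals for inclusion and exclusion reads, and the count without bins at 0 on 1 side, were added after seeing the data. Named bins were all called bins, the 3 with most reads per distance class, the 5 largest differences in each direction among bins not called with at least 100 reads in each condition and no overlap, the 5 with most reads and a PSI of 40 to 60% in both conditions, the 3 on each side of the read minimum, and all members in the 3 gene lists, of which the values of 1 gene are not reported here. Bins, lists and rules were chosen with earlier results of these data known. A symbol was found for 181 of the 398 loci and a product name for 397. In 22 loci several bins are members, and 19 junctions serve more than 1 bin.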

Additional observations from a re-analysis of the deposited data

How the results depend on the processing

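The count of 15 called bins moved with the method. It was 9 with the replicate block, 23 with the newer quasi-likelihood method, 5 with DESeq2, 1 with limma at a pseudocount of 0.5 and 43 at a pseudocount of 2, 54 when only the 1445 annotated AS events were fitted, 8 with no minimum per side and no gene filter, 8 at a difference over 10 points, and, in settings added after seeing the data, 39 with separate totals for inclusion and exclusion reads and 7 without bins that had a library at 0 on 1 side. Over all events the counts were 700 as reported, 213 with the block, 163 with DESeq2, 138 and 3679 with limma, 247 of the 1445 annotated events, 210 with no minimum per side and no gene filter, 359 to 506 with a library left out, 272 at an adjusted p under 0.05 and 284 at a difference over 10 points. The cause of these shifts was not tested, except that the stricter thresholds are subsets by construction. The count was 10 to 14 with a library left out, and 8 to 11 of the 15 were kept. NAP1;2 turned to -1.86 points without the third FRp library.

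The replicate numbers gave no sign of pairing: deviations of same-numbered libraries from their condition means correlated at 0.00964, -0.00196 and 0.00827 for junction ratios and 0.0657, -0.111 and -0.0604 for gene levels. The block gave 9 called bins and 216 DE host genes.

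The rank correlation between distance and PSI was, among lines marked Alt3ss only, 0.066 after the Rp and 0.023 after the FRp, and 0.032 to 0.056 after the Rp and -0.013 to 0.0014 after the FRp with a library left out. The difference between divisible and other pairs after the Rp was -1.16 points at 100 reads per condition, -1.84 points in Alt3ss lines only and -0.675 points up to 100 nt, and 0.652 to 10 points with a library left out. After the FRp it was 1.37 to 3.35 points with a library left out. The host gene count was 213 to 219 with a library left out. Depth limits bins near 30 reads, as in DHNAT2.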
